A study of Mus musculus with 6 samples.

Results

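The nuclear genes of respiratory complexes II to V and of cytochrome c were examined in bladder tumor organoids of C57BL/6 mice. The genes were taken by symbol: Sdha, Sdhb, Sdhc, Sdhd, Cyc1, Cycs, and every protein-coding gene whose symbol starts with Uqcr, Cox4i, Cox5, Cox6, Cox7, Cox8 or Atp5. This gave 49 genes among 51912 gene IDs, namely 4 of complex II, 9 of complex III, 18 of complex IV, 17 of complex V and Cycs. Of these, 41 reached a mean of 1 in the unit of the deposited table, which it names TPM, and were tested together with all 9287 genes that did so. The mitochondrially encoded subunits, and complex I, are not among them.

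RNA was sequenced in bulk from 3 libraries of organoids treated with SRT1720, a compound known for activating SIRT1, a protein deacetylase, and from 3 libraries of organoids given vehicle. All 6 libraries share the strain and the labelled tissue. The labels state no dose, duration, tumor origin or age, and do not say whether each replicate was a culture or an animal of its own. The p-values therefore cover only the spread among these libraries, part of which may be technical. The series title names SIRT1 and the hypoxia-inducible factors, and the comparison made here is SRT1720 against vehicle.

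Respiratory complexes pass electrons from nutrients to oxygen across the inner mitochondrial membrane. Complex II oxidizes succinate, complex III passes electrons from ubiquinol to cytochrome c, and complex IV passes them on to oxygen. Complexes III and IV pump protons, and complex V, the ATP synthase, lets protons flow back to make ATP. Most subunits are encoded in the nucleus, and several subunits of complex IV exist as a ubiquitous isoform and a muscle, lung or testis isoform.

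Before the members are described, features of the libraries bear on every value. The depth recovered from the deposited values was 18159660 to 22722475 reads per library. Of 16 urothelial and epithelial markers, 12 reached a mean of 1 TPM, and Upk3a, a uroplakin of mature urothelium, was at 0 in all 6 libraries. Of the other listed uroplakins, Upk1b was at 0.660 to 12.1 TPM, and Upk1a and Upk2 were at most 1.34 and 0.419 TPM. Krt5, a basal keratin, was low in SRT1720 1 and Vehicle 2 (16.4 and 9.61 TPM) and high in the other 4 libraries, from 425 to 1120 TPM. Chromosome 3 genes had median deviations of −0.42 and −0.44 (log2, from each gene's mean of its group) in SRT1720 3 and Vehicle 3, against 0.14 to 0.29 in the other 4 libraries. Among marker genes for other cell types, 0 of 10 fibroblast, 0 of 8 endothelial, 2 of 11 leukocyte and 1 of 7 smooth muscle genes reached a mean of 1 TPM. Their summed levels were 0.071 to 2.83 TPM with SRT1720 and 0.225 to 4.20 TPM with vehicle for fibroblasts, and 0.032 to 0.041 against 0.023 to 0.031 TPM for endothelium. For leukocytes the sums were 1.04 to 11.7 against 1.99 to 16.1 TPM, with Cd3e, Cd3g and Nkg7 at 0 in every library, and for smooth muscle 2.35 to 2.87 against 2.57 to 7.15 TPM. Their part in the results was not tested. In bulk RNA, fewer cells of a type and less RNA per cell cannot be told apart.

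Across the members, values with SRT1720 were more often above than below those with vehicle, and no single gene passed the test. Of the 41 tested members, 30 had a log2 fold change above 0 (73.2%), against 54.8% of all genes tested. Their median log2 fold change was 0.12, against 0.04 for all genes. By limma with Benjamini-Hochberg adjustment over all genes, 0 members were called, and 0 of 9287 genes were called (0%). The adjusted p of the members ranged from 0.284 to 0.998. The 3 SRT1720 libraries lay above the 3 Vehicle libraries in 6 members (14.6%; 12.1% of all genes), which were Atp5g3, Atp5k, Atp5mpl, Atp5b, Cyc1 and Uqcrc1. They lay below in 1 member, Sdhc (2.4%; 7.75% of all genes). In either direction, 19.9% of all genes did not overlap. At an unadjusted p under 0.05 there were 2 members, Atp5g3 and Atp5k, both with higher values with SRT1720, while 7.86% of all genes were so on the higher side, 4.55% on the lower side and 12.4% on either. Voom on the recovered reads also called 0 members and 0 genes. With voom 562 of 1106 genes at an unadjusted p under 0.05 were higher, against 730 of 1153 in the limma fit on TPM, and 27 of 41 members were above 0. The share of members above 0 rested in part on Vehicle 3: without it the members' median was 0.04 and 25 of 41 were above 0. The median was 0.07 without SRT1720 2, 0.22 without Vehicle 1 and 0.07 with median-of-ratios scaling. Without SRT1720 2 the count of all genes at an unadjusted p under 0.05 was 523.

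**Figure D1:**
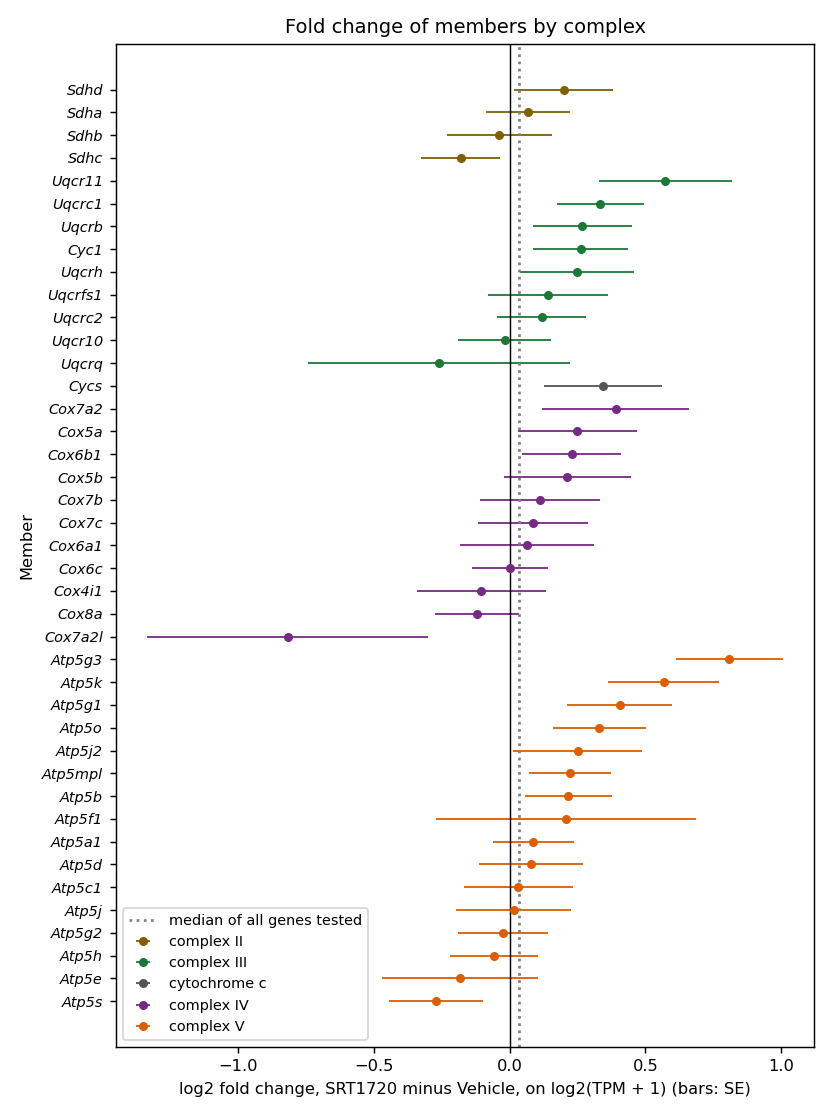
Log2 fold change of each tested member, SRT1720 minus Vehicle, on log2(TPM + 1), with bars of 1 standard error from limma and colors by complex. The dotted line is the median of all genes tested (0.04), 30 of 41 points lie above 0, Atp5g3 is the highest at 0.81 and Cox7a2l the lowest at −0.82.

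Vehicle 3 held the lowest value of 20 of the 41 members (48.8%), against 22.1% of all genes. SRT1720 2 held the highest value in 14 members (34.1%), against 15.1% of all genes, and SRT1720 1 held the lowest in 0 members, against 11.2%. The median coefficient of variation of members within a group was 11.1% in SRT1720 and 18.5% in Vehicle, against 18.9% and 23.8% over all genes tested. These sets were not matched for level: 39 of 41 members reached a mean of 5 TPM, against 3594 of 9287 genes. Whether members vary less than genes of like level was not tested. Cox6c, a small subunit of complex IV, was the steadiest, with its highest library at 1.14 times its lowest, and Cox7a2l the most variable at 5.11 times. With near-identical copies added, described below, Cox6c was less even, at 11.4 to 15.9 TPM. These copies held 25.0% of the summed TPM but only 1.5% of the reads.

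**Figure D2:**
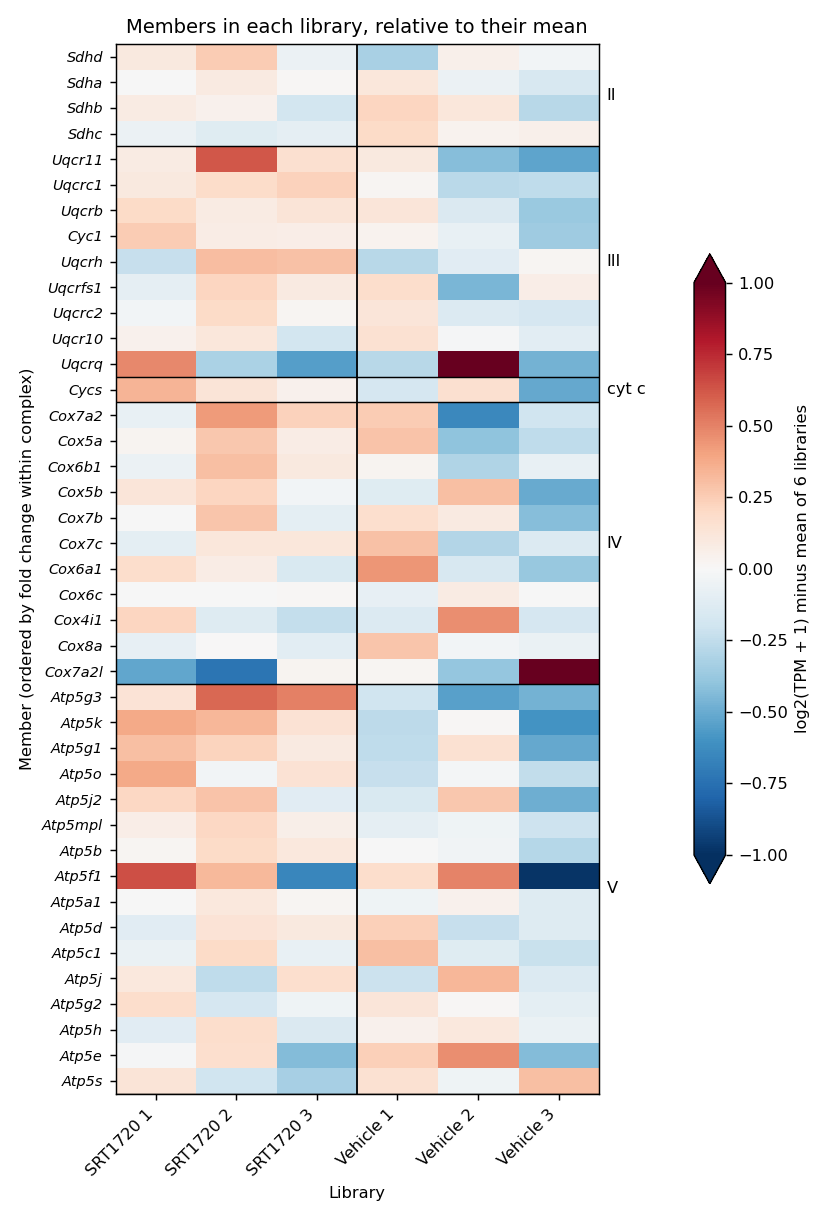
Log2(TPM + 1) of each tested member in each library, minus the member's mean of 6 libraries, grouped by complex and ordered by fold change; red is above the mean and blue below, and values beyond 1 are drawn at the end of the scale. The Vehicle 3 column is mostly blue, and Uqcrq, Atp5f1 and Cox7a2l show patterns that cross the groups.

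In level, Cox8a led, at 179 TPM on average over the 6 libraries, followed by Cox7a2l at 91.3, Cox6a1 at 84.3, Atp5b at 77.2 and Atp5a1 at 64.9 TPM. The order among these neighbours is not firm, since Cox7a2l ranged from 45.8 to 234 TPM and Cox6a1 from 63.4 to 113 TPM. Levels of different genes also depend on the gene length that the authors divided by. The recovered length equalled the sum of a gene's distinct exons within 1 base in 2851 of 9160 genes, and among 7397 genes whose exons overlap it equalled that sum in 1295 and the merged exons in 14. The recovered length was longer than the merged exons for some members and shorter for others: 9797 against 4912 bases for Atp5g1, but 1194 against 2154 for Cyc1 and 1147 against 1478 for Cox7a2l. Since the smallest fitting length was kept, recovered reads, and levels made from them, can be understated. Per kilobase of merged exons, scaled to each library's recovered depth, Cox8a was still first at 408, Cox6a1 was second at 371 and Cox7a2l seventh at 183. Atp5g1 and Atp5s were the lowest of the tested members on both scales.

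Complex II, succinate dehydrogenase, showed no common direction: 2 of its 4 genes were above 0 and 2 below, and the median was 0.02 (log2), or −0.09 without Vehicle 3. Sdhc (ENSMUSG00000058076, chromosome 1, 171127165 to 171150603 on GRCm38), a membrane anchor, was at 12.0, 11.5 and 11.7 TPM with SRT1720 and at 14.5, 12.9 and 13.02 TPM with vehicle. All 3 Vehicle libraries lay above all 3 SRT1720 libraries, by a small margin, with a log2 fold change of −0.18 (SE 0.15, adjusted p = 0.666 by limma, n = 3 and 3). Sdhd, the other membrane anchor, was the most abundant gene of the complex, at 54.0, 60.4 and 48.4 TPM with SRT1720 and 40.1, 52.3 and 49.4 TPM with vehicle. Sdhd was lowest in Vehicle 1, the groups overlapped, and the log2 fold change was 0.20 (SE 0.18, adjusted p = 0.707), or 0.09 without Vehicle 1 and 0.12 without SRT1720 2. Sdhb, the iron-sulfur subunit, was at 15.4, 15.0 and 12.6 TPM against 17.0, 15.8 and 11.8 TPM, low in the third library of both groups. Sdha, the flavoprotein that holds the succinate site, stayed between 12.4 and 15.1 TPM in all 6 libraries.

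Complex III had 7 of 9 genes above 0 and the highest median log2 fold change of the complexes, 0.25, which ranged from 0.14 to 0.27 over 17 alternative settings and was 0.15 without Vehicle 3. Cyc1 (ENSMUSG00000022551, chromosome 15, 76343523 to 76346260), the heme protein cytochrome c1, was at 75.7, 67.0 and 66.3 TPM with SRT1720 and 64.9, 60.3 and 49.3 TPM with vehicle. Its groups did not overlap, with a log2 fold change of 0.26 (SE 0.17, adjusted p = 0.587; 0.15 without Vehicle 3), and the gap between SRT1720 3 and Vehicle 1 was narrow. Uqcrc1 (ENSMUSG00000025651, chromosome 9, 108936633 to 108949623), a core subunit, was at 13.9, 14.8 and 15.3 TPM against 13.1, 10.6 and 10.7 TPM. Its groups did not overlap either, and the log2 fold change was 0.33 (SE 0.16, adjusted p = 0.459).

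Uqcr11 (ENSMUSG00000020163, chromosome 10, 80402997 to 80406830), a small subunit, had the highest fold change of complex III. Its values were 19.5, 28.8 and 20.6 TPM with SRT1720 and 19.7, 13.4 and 12.4 TPM with vehicle. Vehicle 1 lay within the SRT1720 libraries, so the groups overlapped (log2 fold change 0.57, SE 0.24, unadjusted p = 0.0524, adjusted p = 0.406 by limma). Uqcrq, another small subunit, was at 50.6, 28.8 and 24.3 TPM against 29.6, 80.8 and 25.7 TPM. Uqcrq was high in SRT1720 1 and Vehicle 2, the same 2 libraries in which Krt5 was low, and its log2 fold change of −0.26 became 0.24 without Vehicle 2. Without both SRT1720 1 and Vehicle 2 it was −0.06. The part of Krt5-low cells in these values was not tested. Uqcrfs1, the Rieske iron-sulfur protein, and the core subunit Uqcrc2 had log2 fold changes of 0.14 and 0.12, and Uqcrb, Uqcrh and Uqcr10 had 0.27, 0.25 and −0.02.

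Cytochrome c, the soluble carrier between complexes III and IV, also starts apoptosis when it leaves the mitochondrion. Cycs (ENSMUSG00000063694, chromosome 6, 50562563 to 50566538), its somatic gene, was at 19.4, 16.6 and 15.6 TPM with SRT1720 and 13.3, 17.1 and 10.3 TPM with vehicle. Vehicle 2 lay among the SRT1720 libraries, and the log2 fold change was 0.34 (SE 0.22, adjusted p = 0.568), and 0.17 without Vehicle 3. Among 8 tested genes of its apoptotic partners, 5 were above 0 and 0 passed the adjusted test. Bak1, a pore-forming protein of the outer membrane, was at 5.36 ± 1.06 TPM against 2.90 ± 0.51 TPM (SD, n = 3), without overlap (adjusted p = 0.292 by limma). Casp9, the initiator caspase of this pathway, was at 1.18 ± 0.22 against 1.35 ± 0.23 TPM.

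Complex IV had 8 of 11 tested genes above 0, with a median of 0.09. It had 0 genes whose groups did not overlap, against 19.9% of all genes in either direction. Its median was 0.0006 without Vehicle 3 and 0.22 without Vehicle 1. The ubiquitous isoforms were expressed and the tissue isoforms were nearly absent. Cox4i2, a lung and hypoxia isoform, was at most 0.0763 TPM, while Cox4i1 was at 28.6, 22.4 and 20.7 TPM with SRT1720 and 22.3, 34.2 and 21.7 TPM with vehicle, high in the 2 libraries low in Krt5. The muscle isoform gene Cox6a2 was listed at 0 in 3 libraries and at most 0.717 TPM in the others, while Cox6a1 was at 93.5, 87.1 and 74.6 TPM against 113, 74.2 and 63.4 TPM. Cox7a1, a muscle isoform, stayed at or under 0.445 TPM, and Cox7a2, its ubiquitous counterpart, was at 19.6, 28.2 and 24.5 TPM against 24.9, 12.9 and 17.9 TPM. Cox7a2 had the highest fold change of the complex (log2 0.39, SE 0.27, adjusted p = 0.605), with overlapping groups, and it was 0.17 without Vehicle 2 and 0.62 without Vehicle 1. Cox6b2, a testis isoform, was at most 0.285 TPM, and Cox6b1 was at 32.3, 41.5 and 36.1 against 34.3, 27.1 and 31.9 TPM. Cox7b2, Cox8b and Cox8c were at 0 in every library. Cox7b was at 22.3, 27.3 and 20.8 against 25.2, 23.9 and 16.4 TPM, and Cox8a at 168, 179 and 165 against 216, 175 and 170 TPM, highest in Vehicle 1.

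Cox7a2l (ENSMUSG00000024248, chromosome 17, 83501918 to 83517330) encodes a factor that joins complexes III and IV into supercomplexes, and C57BL/6 mice are known to carry a short form of the protein. It was at 53.3, 45.8 and 78.2 TPM with SRT1720 and at 77.6, 58.6 and 234 TPM with vehicle. Vehicle 3 stood apart at 2.99 times the next highest library, the highest such ratio among 2866 protein-coding genes whose mean reached 5 TPM, while the other 5 libraries of both groups overlapped. The log2 fold change was −0.82 (SE 0.52, adjusted p = 0.568) and −0.22 without Vehicle 3. The sum of complex IV was 474 ± 10.04 TPM with SRT1720 and 537 ± 74.7 TPM with vehicle (SD, n = 3), but 414 ± 24.2 and 414 ± 65.2 TPM without Cox7a2l.

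Genes within 1 Mb of Cox7a2l were looked at because of that value. The 5 neighbours whose mean reached 1 TPM were Eml4, Mta3, Zfp36l2, Thada and Plekhh2, and each was higher in SRT1720 3 and Vehicle 3 than in the other 4 libraries. Zfp36l2, an mRNA decay factor, was at 18.4, 21.6 and 67.5 TPM with SRT1720 and 32.4, 30.4 and 71.6 TPM with vehicle. Vehicle 3 was at 0.689 to 1.06 times the highest other library in these neighbours, against 2.99 times in Cox7a2l. Cox7a2l was also highest in Vehicle 3 and SRT1720 3, although SRT1720 3 was barely above Vehicle 1 (78.2 against 77.6 TPM). The medians of chromosome 17 as a whole lay between −0.04 and 0.03 in all 6 libraries. The cause of the Cox7a2l value was not tested.

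**Figure D3:**
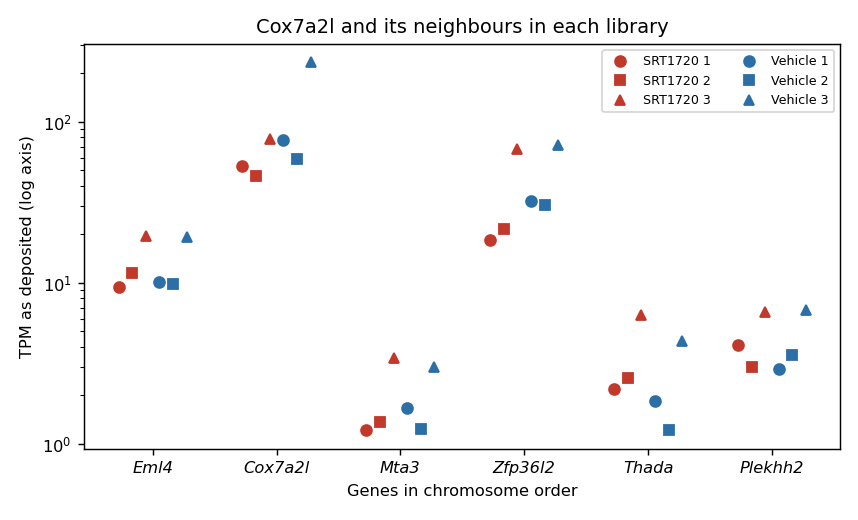
TPM of Cox7a2l and its 5 neighbours in chromosome order, on a log axis, in each of the 6 libraries; red is SRT1720 and blue Vehicle, and triangles are the third library of each group. The triangles are highest in all 5 neighbours, and for Cox7a2l only the Vehicle 3 triangle stands clear of the rest.

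Complex V had 12 of 16 tested genes above 0, a median log2 fold change of 0.15, and 4 genes whose groups did not overlap, all higher with SRT1720 (25.0% of its members; 12.1% of all genes). Its summed level was 347, 377 and 340 TPM with SRT1720 and 330, 329 and 268 TPM with vehicle, without overlap. With near-identical copies added, described below, the sums were 961, 1003 and 894 against 932, 861 and 712 TPM, and SRT1720 3 lay below Vehicle 1. The copies of Atp5g2 and Atp5l added 218 and 159 TPM on average. Each copy is divided by its own length, so this sum does not weigh genes by their reads. Without Vehicle 3 the median was 0.04. In the catalytic head, Atp5b (ENSMUSG00000025393, chromosome 10, 128083273 to 128090391), the beta subunit, was at 78.0, 88.0 and 82.9 TPM with SRT1720 and 76.4, 75.1 and 62.8 TPM with vehicle. The groups did not overlap, by a narrow gap (log2 fold change 0.22, SE 0.16, adjusted p = 0.632; 0.13 without Vehicle 3 and 0.14 with quantile normalization). Atp5a1, the alpha subunit, was at 64.8, 69.9 and 65.8 against 62.8, 66.7 and 59.3 TPM, with overlap.

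Atp5k (ENSMUSG00000050856, chromosome 5, 108433244 to 108434448) encodes subunit e, which helps ATP synthase form dimers. It was at 21.1, 20.3 and 17.8 TPM with SRT1720 and 13.2, 16.1 and 10.2 TPM with vehicle. The groups did not overlap, and the log2 fold change was 0.57 (SE 0.20, unadjusted p = 0.0285, adjusted p = 0.355). It ranged from 0.41 to 0.72 over the 17 settings. Atp5mpl (ENSMUSG00000021290, chromosome 12, 111961375 to 111966977), a small proteolipid of the enzyme, was at 13.5, 14.9 and 13.4 TPM against 12.0, 12.4 and 10.9 TPM, with no overlap and a log2 fold change of 0.22 (SE 0.15, adjusted p = 0.595). Atp5o, a subunit of the stalk, had a log2 fold change of 0.33 with overlapping groups (adjusted p = 0.484).

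Atp5f1 (ENSMUSG00000000563, chromosome 3, 105942698 to 105960099), subunit b of the stalk, was at 18.9, 14.9 and 7.09 TPM with SRT1720 and 13.4, 16.9 and 5.45 TPM with vehicle. It was lowest in SRT1720 3 and Vehicle 3, the libraries with low chromosome 3 medians, and it is the member that lies on that chromosome. Its log2 fold change was 0.21 (SE 0.48, adjusted p = 0.909). Atp5s, counted here by its symbol, was at 1.30 ± 0.38 against 1.76 ± 0.33 TPM (SD, n = 3). It had the lowest fold change of the tested Atp5 genes, −0.27 (adjusted p = 0.576 by limma), on 214 to 419 recovered reads per library. The other tested genes of the complex (Atp5c1, Atp5d, Atp5e, Atp5h, Atp5j and Atp5j2) had log2 fold changes from −0.18 to 0.25.

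The proton-turning ring of ATP synthase is built from subunit c, which Atp5g1, Atp5g2 and Atp5g3 encode as the same mature protein behind different leader peptides. Their coding sequences are shown because the members differ here in level and fold change, and because 2 of them have near-identical copies. The last 237 coding bases are the longest stretch, counted from the stop codon, over which the 3 genes encode the same amino acids. They are given 5′ to 3′ from GENCODE on GRCm38, with capitals at bases that differ from Atp5g3. The fourth line is Gm10039, a copy of Atp5g1, with capitals at bases that differ from Atp5g1.
Atp5g3: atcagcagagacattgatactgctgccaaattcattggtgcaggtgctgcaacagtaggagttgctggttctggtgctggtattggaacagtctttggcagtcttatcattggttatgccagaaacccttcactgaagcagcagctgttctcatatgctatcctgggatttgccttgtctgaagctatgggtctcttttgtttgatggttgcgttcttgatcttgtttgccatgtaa
Atp5g1: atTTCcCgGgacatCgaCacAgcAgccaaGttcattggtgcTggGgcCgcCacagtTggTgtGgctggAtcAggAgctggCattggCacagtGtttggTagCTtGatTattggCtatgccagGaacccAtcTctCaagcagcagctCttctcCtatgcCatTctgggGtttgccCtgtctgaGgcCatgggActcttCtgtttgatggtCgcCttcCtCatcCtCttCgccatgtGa
Atp5g2: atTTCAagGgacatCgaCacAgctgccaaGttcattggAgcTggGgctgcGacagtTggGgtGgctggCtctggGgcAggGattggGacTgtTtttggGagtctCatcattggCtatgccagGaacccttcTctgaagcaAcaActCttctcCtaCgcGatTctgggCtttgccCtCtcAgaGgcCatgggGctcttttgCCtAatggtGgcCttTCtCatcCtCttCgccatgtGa
Gm10039: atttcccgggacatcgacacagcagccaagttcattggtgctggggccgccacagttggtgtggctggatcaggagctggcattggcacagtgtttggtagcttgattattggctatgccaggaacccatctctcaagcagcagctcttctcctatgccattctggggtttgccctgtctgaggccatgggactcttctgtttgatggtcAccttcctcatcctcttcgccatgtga
Over these bases Atp5g1 differed from Atp5g3 at 51 positions and Atp5g2 at 54, while Gm10039 differed from Atp5g1 at 1, the same as over its whole 411 bases.

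Atp5g3 (ENSMUSG00000018770, chromosome 2, 73908447 to 73911326, minus strand) had the smallest p of all members and the largest fold change among those higher with SRT1720. It was at 31.6, 43.2 and 41.2 TPM with SRT1720 and 24.9, 19.4 and 20.4 TPM with vehicle. The lowest SRT1720 library lay above the highest Vehicle library, with a log2 fold change of 0.81 (SE 0.20, unadjusted p = 0.0049, adjusted p = 0.284 by limma, exact permutation p = 0.1, the smallest that 3 against 3 libraries can give). It stayed between 0.72 and 0.94 over 17 settings, and was higher with SRT1720 in each. No near-identical copy of Atp5g3 was found. Atp5g2 (chromosome 15, 102662864 to 102672352) was at 13.7, 10.6 and 11.6 TPM against 13.1, 12.1 and 11.2 TPM, a log2 fold change of −0.02. Atp5g1 (chromosome 11, 96068852 to 96075670) was at 2.20, 2.03 and 1.76 TPM against 1.19, 1.89 and 0.827 TPM, with Vehicle 2 within the SRT1720 range and a log2 fold change of 0.41 (SE 0.19, adjusted p = 0.456), or 0.25 without Vehicle 3 and 0.65 with a pseudocount of 0.1.

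**Figure D4:**
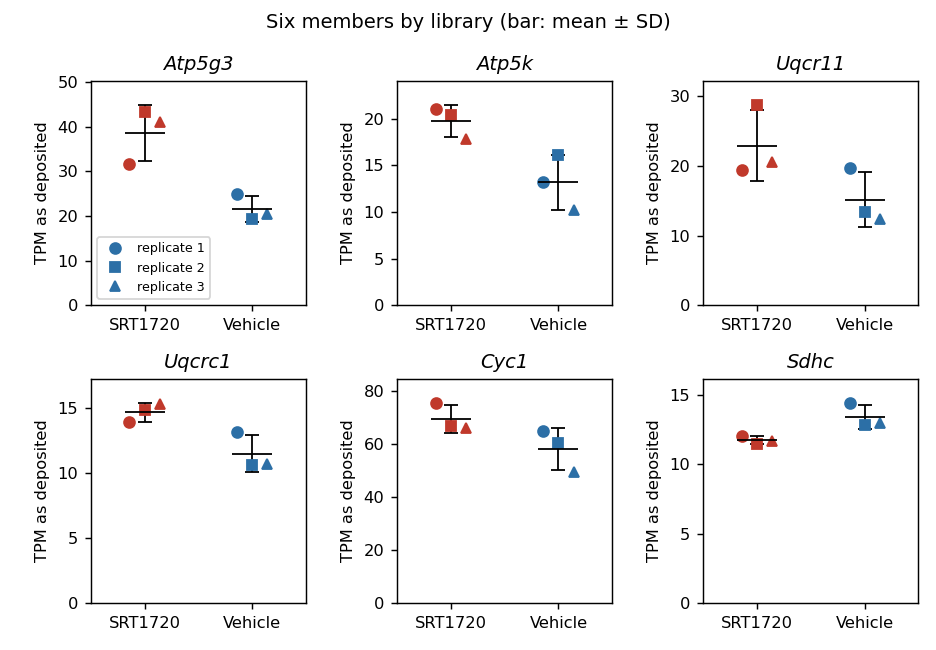
TPM of 6 members in each library, with a horizontal bar at the group mean and error bars of 1 SD (n = 3); the axis starts at 0, and marker shapes give the replicate number. The groups do not overlap in Atp5g3, Atp5k, Uqcrc1 and Cyc1, with SRT1720 higher, and in Sdhc, with SRT1720 lower, while Uqcr11 overlaps through Vehicle 1.

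Many members have processed pseudogenes, so reads can be split between a gene and its copies. How reads that map to several places were treated is not given in the sources used here. Gm10231 and Gm10175, for example, both matched Atp5g2 over 441 bases with 0 differences. A read counted at several such places would enter a sum of gene and copies more than once. Copies were found by aligning the coding sequence of each member to GENCODE transcripts, at 90% identity over at least 50% of the coding sequence. Of the 49 members, 20 had at least 1 copy and 63 copies were found in all, 60 of them annotated as pseudogenes. Of the tested members, 22 had no copy, and 11 had a copy whose mean reached 1 TPM.

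In 5 tested members more recovered reads lay at copies than at the gene: Atp5g2 (84.4% of the sum), Cox7c (68.5%), Atp5h (66.5%), Cycs (63.4%) and Atp5g1 (51.1%). Atp5l, subunit g of ATP synthase, was not tested, at 0.843 TPM on average, yet its 13 copies summed to 159 TPM, mostly at Gm10221, which matched the coding sequence over 309 bases at 100% identity. With copies added, Atp5l was at 155, 202 and 160 TPM with SRT1720 and 194, 121 and 127 TPM with vehicle, with overlap and a log2 fold change of 0.24 (adjusted p = 0.718). The levels of these genes are therefore uncertain.

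With copies added, Atp5g1 was at 109, 108 and 88.7 TPM with SRT1720 and 66.8, 87.1 and 42.2 TPM with vehicle. In such sums each gene or copy is divided by its own length, so shares in TPM differ from shares in reads. Copies held 98.0% of the summed TPM of Atp5g1, on 51.1% of the reads, so this sum is mostly the level of copies. The groups of this sum did not overlap, narrowly, and its log2 fold change was 0.68 (SE 0.28, unadjusted p = 0.0459, adjusted p = 0.396 by limma). The same addition moved the log2 fold change of Uqcrb from 0.27 to 0.07 and of Cox5b from 0.21 to 0.02, and took Atp5g2 from −0.02 to 0.04. Cycs went from 0.34 to 0.38. Of the 18 members whose copies were above 0 TPM, 17 had a log2 fold change above 0. Without copies added, 54.8% of all genes did so. Cox6c was the exception, at −0.10, with 1.5% of its reads at copies. Uqcr10 and Uqcrq, whose copies were at 0 TPM, kept −0.02 and −0.26. Over all 42 members that then reached the filter, 32 were above 0. Among the 18, 3 did not overlap (Atp5g1, Atp5k and Atp5o, all higher with SRT1720, where 12.1% of all genes did so without copies added). Atp5k gained only 0.0638 TPM on average from its copies and did not overlap without them either. In the adjusted test 0 passed. Among the 22 tested members with no copy, 15 were above 0 and the median was 0.08.

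**Figure D5:**
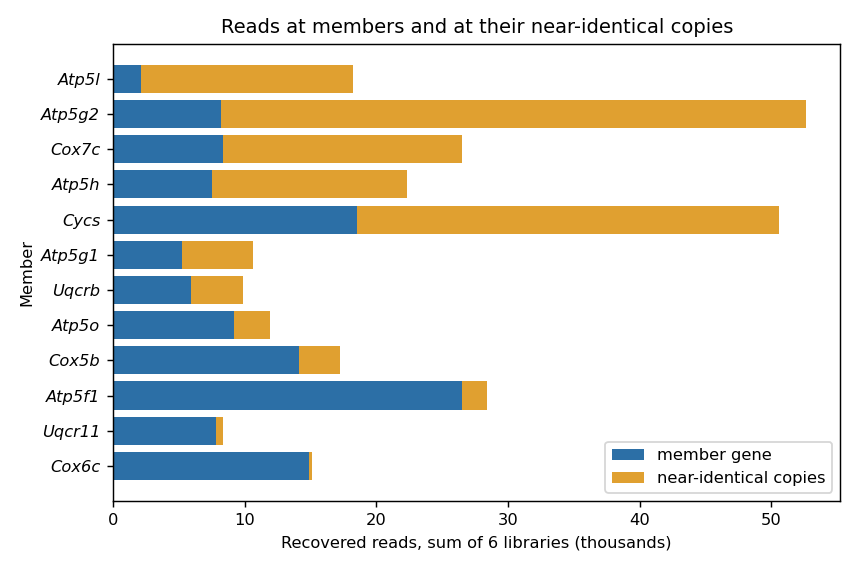
Recovered reads, summed over the 6 libraries, at each member with a copy whose mean reached 1 TPM (blue) and at its near-identical copies (orange), ordered by the share at copies. Copies hold the larger part for Atp5l, Atp5g2, Cox7c, Atp5h, Cycs and Atp5g1.

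Promoter sequences are shown for the 2 members with an unadjusted p under 0.05, since respiratory genes are known to share sites for NRF1, a transcription factor of nuclear respiratory genes. The 250 bases before the start are from RefSeq (GRCm38.p6), 5′ to 3′ on the gene's strand, with the NRF1 match in capitals. They cover chr2:73911327-73911576 for Atp5g3 and chr5:108434400-108434649 for Atp5k, both on the minus strand.
Atp5g3: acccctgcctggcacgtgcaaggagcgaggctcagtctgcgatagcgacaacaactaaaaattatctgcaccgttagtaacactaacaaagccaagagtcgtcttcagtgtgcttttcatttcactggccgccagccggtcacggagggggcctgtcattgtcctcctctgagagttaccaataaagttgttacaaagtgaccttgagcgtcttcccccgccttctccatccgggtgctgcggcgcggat
Atp5k: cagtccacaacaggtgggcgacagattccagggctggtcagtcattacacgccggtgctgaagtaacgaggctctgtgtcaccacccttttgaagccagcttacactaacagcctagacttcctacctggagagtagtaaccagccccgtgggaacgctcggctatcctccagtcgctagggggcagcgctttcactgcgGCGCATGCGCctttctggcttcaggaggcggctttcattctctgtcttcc
A RefSeq promoter was found for 37 members and not for 12. The NRF1 motif (GCGCA, any base, then GCGC), searched on both strands of these 250 bases, was present in 7 of the 37 (18.9%). These were Atp5c1, Atp5g2, Atp5h, Atp5k, Cox6a1, Sdha and Sdhd. The share was 4.23% over all 27025 genes with a promoter, whether expressed here or not, and the share among tested genes was not computed. In Atp5k the match began 50 bases before the start, and in Atp5g3 these letters were not in the window. The GABP motif CCGGAAGT was in 3 of 37 members (8.11%; 3.23% of all genes), Atp5h, Uqcr11 and Uqcrh. The YY1 motif AAGATGGCG was in Atp5j alone (2.7%; 0.71% of all genes). All motifs were searched on both strands, each gene counts once over its promoters, and a match is a description of the sequence.

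Of 10 tested regulators of nuclear or mitochondrial respiratory gene transcription, 9 had log2 fold changes above 0 (54.8% of all genes), with a median of 0.11 and 0 called. Tfam, which packages and transcribes mitochondrial DNA, did not overlap, at 6.08, 5.10 and 4.31 TPM with SRT1720 and 3.62, 3.69 and 4.004 TPM with vehicle (log2 fold change 0.36, SE 0.16, adjusted p = 0.411). Yy1 was the exception, at 9.45 ± 1.61 against 12.1 ± 2.96 TPM. The GABP subunits Gabpa, Gabpb1 and Gabpb2 had log2 fold changes of 0.22, 0.06 and 0.27, and the mitochondrial transcription factors Tfb1m and Tfb2m 0.33 and 0.10. The polymerase gene Polrmt, the coactivator Pprc1 and the nuclear receptor Esrra had 0.06, 0.05 and 0.12. Nrf1 itself, at 1.08 ± 0.10 against 0.900 ± 0.23 TPM, was below the filter, as were the coactivators Ppargc1a, Ppargc1b and Perm1.

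Among 27 tested assembly factors of complexes II to V, 17 were above 0 and 10 below (median 0.19). Libraries were free of overlap in 8 on the higher side (29.6%; 12.1% of all genes) and in 2 on the lower (7.4%; 7.75% of all genes). None passed the adjusted test. Cox14, a factor for the synthesis of the core subunit of complex IV, was at 29.7, 26.3 and 25.5 TPM with SRT1720 and 42.5, 46.6 and 42.6 TPM with vehicle, clear of overlap (log2 fold change −0.68, SE 0.16, adjusted p = 0.279). Uqcc3, an assembly factor of complex III, was at 4.95, 5.82 and 3.72 TPM against 2.58, 2.38 and 2.65 TPM, higher in every SRT1720 library (log2 fold change 0.71, SE 0.17, adjusted p = 0.284). Cmc2, a complex IV assembly factor, was at 1.63 ± 0.23 against 0.847 ± 0.11 TPM, also without overlap (adjusted p = 0.292).

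Of 13 genes for the synthesis of coenzyme Q, the carrier that feeds complex III, 6 were tested, of which 2 were above 0 and 4 below, and all 6 overlapped. Below the filter, Pdss2, Coq6, Coq8a and Coq8b overlapped, while 3 genes did not and were higher with SRT1720. These were Pdss1 at 0.815 ± 0.059 against 0.291 ± 0.067 TPM, Coq4 at 0.558 ± 0.20 against 0.210 ± 0.055 TPM and Coq7 at 1.19 ± 0.22 against 0.690 ± 0.14 TPM (SD, n = 3). They were named after their values were seen, and the share without overlap among all genes below the filter was not computed. Recovered reads per library were 34 to 157 for Pdss1 and 49 to 286 for Coq4. Coq10a, Coq5 and Coq9 had log2 fold changes of −0.17, 0.15 and −0.21. Among the carriers that exchange ATP, ADP and phosphate across mitochondrial membranes, 5 of 6 were above 0 (54.8% of all genes) and 3 did not overlap, all higher with SRT1720 (12.1% of all genes). Slc25a5, an adenine nucleotide translocase, was at 63.1, 91.3 and 73.7 TPM with SRT1720 and 53.5, 30.6 and 32.7 TPM with vehicle, the largest fold change of the list (log2 0.98, SE 0.27, adjusted p = 0.295). Slc25a4, its paralog, was at 39.5 ± 2.28 against 26.2 ± 3.46 TPM and the phosphate carrier Slc25a3 at 26.4 ± 2.76 against 22.3 ± 0.968 TPM.

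Of the mitochondrially encoded partners of the same complexes, mt-Co1, the core subunit of complex IV, was at 2420, 2802 and 2898 TPM with SRT1720 and 4503, 4187 and 4609 TPM with vehicle (adjusted p = 0.155), and mt-Cytb of complex III at 1340, 1562 and 1163 against 755, 967 and 475 TPM (adjusted p = 0.306). Both were free of overlap, in opposite directions. That is 1 of 6 tested partners on each side (16.7%), against 12.1% of all genes on the higher and 7.75% on the lower side. The groups overlapped in mt-Co2, mt-Co3 and mt-Atp6, with log2 fold changes of −0.07, 0.12 and 0.21. The gene mt-Atp8, which overlaps mt-Atp6 on the genome, was at 0 to 0.348 TPM against 0.333 to 5.93 TPM (adjusted p = 0.555).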

How the data were processed

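RNA was sequenced in bulk from 6 libraries, and groups and replicate numbers come from the sample titles. The authors deposited 1 table of values that it names TPM, with 51912 gene IDs. Its columns sum to 161231 to 171577, where TPM sums to 1000000 by definition. The submitters' processing notes name STAR 2.6.0 and the build GRCm38. The counting program and the gene lengths were not given in the sources used here. Whole reads were recovered from the steps of the deposited values within 0.01 reads for 27713 of 27713 IDs above 0 and for 9287 of 9287 tested. Only whole-read solutions were accepted and the smallest was kept, so this share follows from the search.

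Genes whose mean reached 1 TPM were tested with limma 3.58.1 (R 4.3.3; linear fits, then eBayes moderation with a trend on the mean) on log2(TPM + 1), which understates changes of low genes. P-values were adjusted by Benjamini-Hochberg over all these genes, with a threshold of 0.05. Copies were found with blastn 2.17.0 among transcripts of GENCODE mouse release M21 (GRCm38), whose annotation matched 51719 IDs. No libraries of a group agreed within sampling noise (median chi-square per gene 17.7 to 41.7). Of the rows matching the symbol rule, 7 were pseudogenes and were left out. Named with all values were the 2 highest genes per complex, genes without overlap, the 5 with the smallest p, isoform pairs, Cyc1 and Cycs; in other lists the 3 with the smallest p and each tested regulator; a few others were added after their values were seen. The values of 1 listed gene are not reported here. The members and lists were chosen with earlier results of these data known. Alternatives covered the filter, pseudocount, scaling, spread model, a replicate block, libraries left out, voom on recovered reads and, chosen after seeing the data, copies added.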

Additional observations from a re-analysis of the deposited data

How the results depend on the processing

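In 17 alternative settings 0 genes and 0 members were called. The count at an unadjusted p under 0.05, 1153 of 9287 genes as reported, was 498 of 3594 at a mean of at least 5 and 2028 of 27713 with no filter. Among the same 9287 genes it was 682 without both SRT1720 3 and Vehicle 3. With 1 library left out it was 523 to 1054, lowest without SRT1720 2. The median of all members ranged from 0.04 to 0.22, that of complex II from −0.09 (without Vehicle 3) to 0.07, and that of complex V from 0.04 (without Vehicle 3) to 0.23. With 1 library left out, complex II ranged from −0.0898 to 0.0748 and complex V from 0.0408 to 0.2263.

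The fold change of 6 named genes changed sign. Atp5g2 was at 0.0409 with copies added, 0.0538 without SRT1720 2 and 0.0296 without Vehicle 1, and ranged down to −0.1165 with 1 library left out. Cox6a1 was at −0.0074 without SRT1720 1, −0.1116 without Vehicle 3, −0.0699 without both SRT1720 1 and Vehicle 2 and −0.0210 without both SRT1720 3 and Vehicle 3, with a highest value of 0.3008. Sdhb was at 0.0446 without SRT1720 3, 0.0615 without Vehicle 1 and 0.0108 without Vehicle 2, with a lowest value of −0.1859. Without Vehicle 2, Uqcrq was at 0.2447 and Cox4i1 at 0.1009, against lowest values of −0.5654 and −0.2355 with another library left out. Without Vehicle 3, Cox7b was at −0.0712. The cause was not tested. In the other 360 results of single genes the direction and the side of the threshold held. The other 147 counts and medians stayed within 1.5 times or within the spread between libraries, although the median of complex II was also below 0 with both scaling alternatives, with voom, without SRT1720 1, without SRT1720 2 and without both SRT1720 3 and Vehicle 3.

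Same-numbered libraries deviated together in 1 of 3 pairs (r of −0.197, −0.262 and 0.788 across genes), so the numbers do not pair them. SRT1720 1 deviated with Vehicle 2 (r = 0.721) and SRT1720 2 with Vehicle 1 (r = 0.676), which no fit here uses, so these differences count as spread within groups. With the replicate block, 1133 genes had an unadjusted p under 0.05 and 0 members were called. Depth limits the lowest members most, with 214 reads for Atp5s in 1 library. That 0 genes passed does not show that no gene changed.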
